A study of Mus musculus with 6 samples.

Results

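The 9 matrix metalloproteinase genes described here (Mmp2, Mmp3, Mmp9, Mmp10, Mmp11, Mmp13, Mmp14, Mmp19 and Mmp23) were taken by gene name from a table of 55416 genes, of which 15269 had enough counts to be tested. All 9 were among the tested genes. Matrix metalloproteinases are zinc-dependent endopeptidases, most of them secreted and a few anchored in the cell membrane, that cut the proteins of the extracellular matrix. They are made as inactive proenzymes, are switched on by removal of a prodomain, and are held in check by tissue inhibitors of metalloproteinases. In cartilage they are known for the cleavage of type II collagen and aggrecan, and their genes are known to respond to inflammatory cytokines.

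The study asked what PKM2, a pyruvate kinase of glycolysis, does in chondrocytes, the cells of cartilage. Primary chondrocytes from mouse knee joints, labelled as neonatal, were grown in DMEM/F12 medium with serum and transfected with an siRNA against Pkm2 (siPkm2, 3 libraries) or with a scrambled control siRNA (siNC, 3 libraries). The methods give 50 nM siRNA and describe chondrocytes taken from mice aged 8 to 10 weeks, and the time of RNA collection for sequencing is not given in the sources used here. The genotype of the controls is labelled WT, and that of the siPkm2 libraries is labelled PKM2, PKM3 and PKM4 knockdown for replicates 1, 2 and 3, so the libraries were grouped by their titles. Nothing in the labels says whether libraries came from separate animals, so the p-values measure the spread between these libraries, which may be technical.

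Pkm, the targeted gene, had levels of 2335, 2746 and 1674 CPM (counts scaled to library size) in replicates 1, 2 and 3 of siNC, and of 336, 541 and 309 CPM in the siPkm2 libraries, with no overlap (exact two-sided permutation test, p = 0.1, the smallest that 3 against 3 libraries can give). Total counts were 22316996 to 25691029 per library. The libraries of replicate 2 stood apart from the rest in both groups. The summed level of 14 chondrocyte markers was 11860 and 16596 CPM in replicate 2 and 49337 to 58471 CPM in the other libraries, while the 23 inflammatory genes listed summed to 13414 and 13962 CPM in replicate 2 and to 133 to 496 CPM elsewhere. Levels of the metalloproteinases are therefore given for every library, with replicate 2 named.

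By median level, the membrane-anchored enzyme and the pair of enzymes that it is known to activate were the most abundant. On the TPM scale, which corrects for gene length, the median over the 6 libraries was 301.7 for Mmp14, 234.5 for Mmp2 and 231 for Mmp13. Mmp23 followed at 89.3 TPM, Mmp11 at 21.4, Mmp19 at 12.7, Mmp3 at 7.04, Mmp9 at 1.06 and Mmp10 at 0.51. Of the 8 pairs of neighbours in this order, the ranges over libraries were separate only for Mmp23 above Mmp11 and for Mmp3 above Mmp9. Mmp14 exceeded Mmp2 in 5 of 6 libraries, and Mmp2 exceeded Mmp13 in 2 of 6. The first 3 places are therefore not distinct beyond the spread between libraries. In replicate 2, Mmp3 exceeded both Mmp14 and Mmp2, at 748.2 TPM in siNC and 626.8 TPM in siPkm2.

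**Figure D1:**
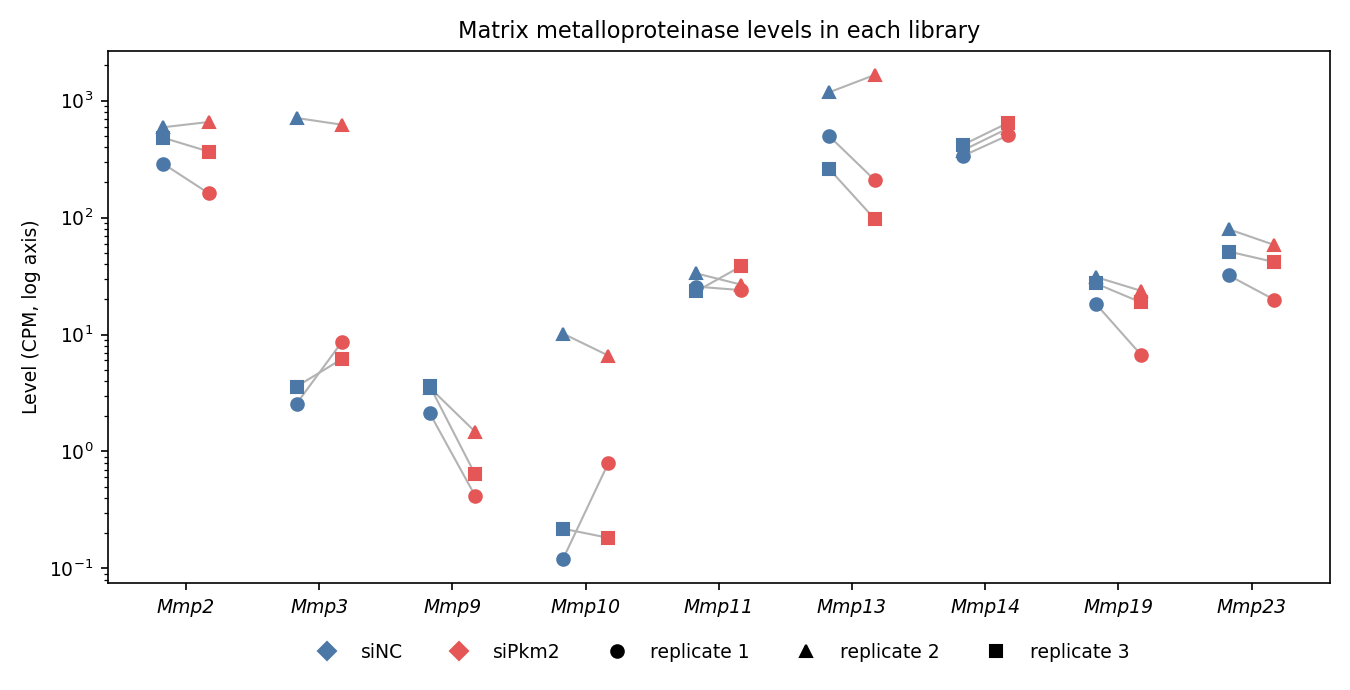
Level of each matrix metalloproteinase gene in CPM (log axis) in the 3 siNC (blue) and 3 siPkm2 (red) libraries, with marker shape for the replicate number and a line joining the libraries of 1 replicate. Replicate 2 lies far above the other libraries for Mmp3 and Mmp10, while the 3 siPkm2 libraries lie above the 3 siNC libraries for Mmp14 and below them for Mmp9.

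In the comparison of siPkm2 with siNC by the edgeR quasi-likelihood F test, a call needed a fold above 2 together with an adjusted p below 0.05. The count of called metalloproteinases was 0 of 9, against 0% of all genes tested. At an unadjusted p under 0.05 there were 2, Mmp9 and Mmp14, against 17.6% of all genes. With the replicate number as a block in the same test, which compares the libraries within each pair, 1 of 9 was called (Mmp9, lower in siPkm2), against 5.83% of all genes, 2.65% called higher and 3.18% lower. Without the threshold on the fold, 3 of 9 passed with the block (Mmp14 higher, Mmp9 and Mmp23 lower), against 23.1% of all genes, 12.3% higher and 10.8% lower. DESeq2 without the block also called Mmp9 lower, against 2.89% of all genes, 1.05% higher and 1.84% lower. The median log2 fold change of the 9 genes was -0.20, beside -0.02 over all genes tested, and with the block it was -0.36, beside -0.01.

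**Figure D2:**
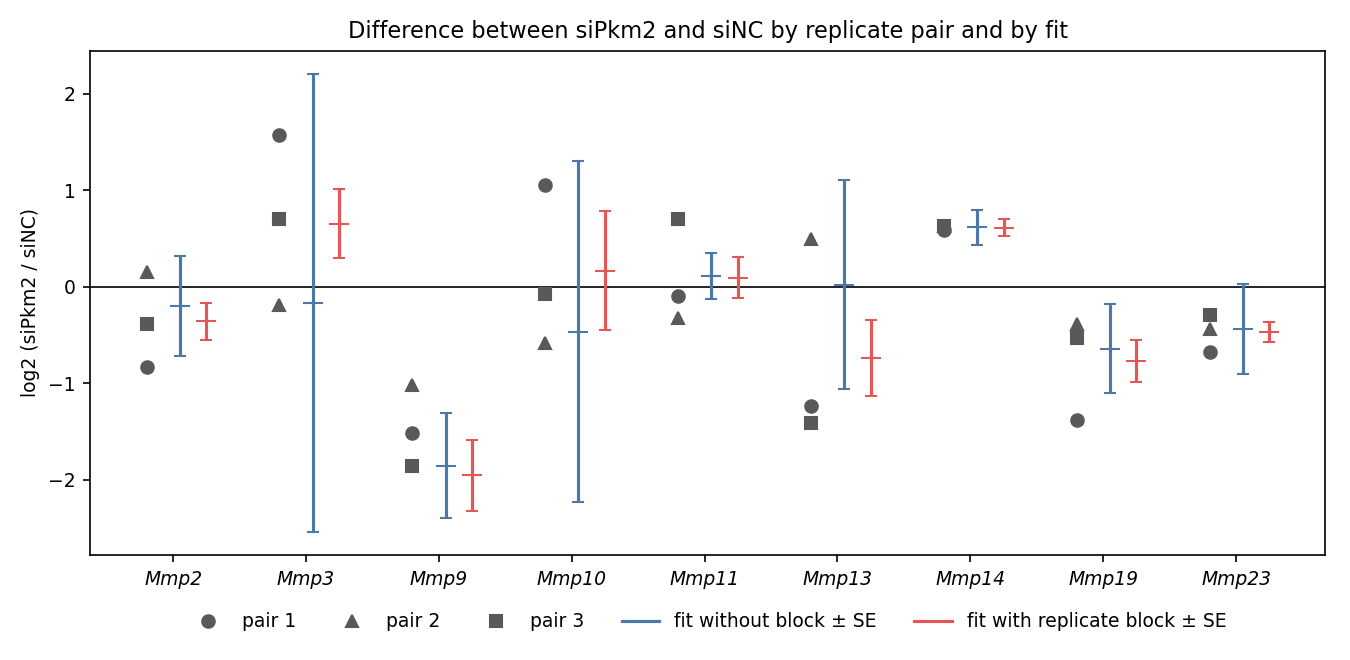
Log2 ratio of siPkm2 to siNC for each matrix metalloproteinase gene, in each replicate pair (grey markers) and as fitted without (blue) and with (red) the replicate block, with bars of ± 1 SE. The 3 pairs lie close together for Mmp14 and on both sides of 0 for Mmp2, Mmp3, Mmp10, Mmp11 and Mmp13.

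Mmp14 (ENSMUSG00000000957, chr14:54431612-54445364 on GRCm38, plus strand) encodes the membrane-anchored protease that cuts collagen around the cell and activates the Mmp2 proenzyme. Its level was 335, 374 and 417 CPM in siNC replicates 1, 2 and 3 and 504, 578 and 644 CPM in siPkm2. Every siPkm2 library lay above every siNC library, an arrangement that 12% of all genes showed. The means were 375.6 ± 40.8 CPM and 575.2 ± 70.1 CPM (SD, n = 3 each), a ratio of 1.53. Each pair was higher in siPkm2, as for 30.5% of all genes, by 0.59, 0.63 and 0.63 on the log2 scale, the narrowest spread between pairs among the 9 genes. In the edgeR quasi-likelihood F test with Benjamini-Hochberg adjustment, the log2 fold change was 0.61 ± 0.18 (SE) with an adjusted p of 0.177, and with the replicate block it was 0.61 ± 0.08 with an adjusted p of 0.0142. Mmp14 was not called in either, since its fold stayed under 2. Replicate 2 did not stand apart for this gene: it was 0.996 times the mean of replicates 1 and 3 in siNC and 1.01 times in siPkm2.

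Mmp2 (ENSMUSG00000031740, chr8:92827291-92853420, plus strand) encodes a gelatinase, which degrades denatured collagen and basement membrane collagen. It stood at 288, 592 and 481 CPM in siNC and at 161, 656 and 367 CPM in siPkm2. The groups overlapped, and replicate 2 was the highest library in each. The log2 difference was -0.83 in pair 1, 0.15 in pair 2 and -0.39 in pair 3. The log2 fold change was -0.20 ± 0.52 (SE; edgeR quasi-likelihood F test with Benjamini-Hochberg adjustment, adjusted p = 0.887), smaller in size than its SE. With the replicate block it was -0.36 ± 0.19 (adjusted p = 0.221 by the same test).

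Mmp9 (ENSMUSG00000017737, chr2:164940780-164955850, plus strand) encodes the other gelatinase, which is known from osteoclasts, macrophages and the growth plate. It was a low gene here, with 53, 87 and 83 counts in siNC and 9, 38 and 14 counts in siPkm2. As levels these were 2.12, 3.52 and 3.63 CPM in siNC and 0.42, 1.48 and 0.64 CPM in siPkm2. Every siPkm2 library lay below every siNC library, as for 12.3% of all genes, and each pair was lower in siPkm2, as for 30.6%. The means were 3.09 ± 0.84 CPM and 0.85 ± 0.56 CPM (SD, n = 3 each), a ratio of 3.66 between siNC and siPkm2. By the edgeR quasi-likelihood F test with Benjamini-Hochberg adjustment, the log2 fold change was -1.85 ± 0.54 (SE) with an adjusted p of 0.175, and with the replicate block it was -1.96 ± 0.37 with an adjusted p of 0.0228. In edgeR the call thus held with the block and not without it, and it was lost again when replicate 1 or replicate 3 was left out. Those blocked fits called 0 of 15740 and 0 of 15545 genes, and in them Mmp9 was at -1.82 and -1.70. DESeq2 called Mmp9 without the block as well. In limma on log2(TPM + 1) with the block, a scale that understates the change of low genes, the value was -0.96 (adjusted p = 0.0224), under the threshold on the fold.

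Macrophages and osteoclasts are the cells in which Mmp9 is best known, and their markers were checked beside it. Of 13 such markers, 7 were too low to be tested, Dcstamp had 0 counts in every library, and Ptprc reached at most 0.0932 CPM. The summed level of the list was 106, 155 and 92.7 CPM in siNC and 284, 190.4 and 225 CPM in siPkm2. Ctsk, a collagen-cutting cathepsin, alone stood at 96.2, 68.7 and 82.2 CPM in siNC and at 262, 119 and 208 CPM in siPkm2. Without Ctsk the other 12 markers summed to 9.77, 86.4 and 10.5 CPM in siNC and to 22.8, 71.1 and 16.6 CPM in siPkm2, with overlapping groups. The macrophage lysozyme Lyz2 was at 2.60, 3.32 and 3.63 CPM in siNC and at 2.0, 3.07 and 3.61 CPM in siPkm2, lower in each pair as Mmp9 was (log2 fold change -0.16 ± 0.22 with the block, adjusted p = 0.629 by the edgeR quasi-likelihood F test with Benjamini-Hochberg adjustment). It was the only tested marker of the list with a negative value in the blocked fit. Opposite to Mmp9, Cd14 was called higher (1.345 ± 0.34, adjusted p = 0.0432 by the same test). Ctsk was at 1.195, Acp5 at 0.65 and Cd68 at 0.48. The part of such cells in the Mmp9 level was not tested.

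The siRNA sequences were set beside the Mmp9 transcript because an siRNA can act on other transcripts through its seed, bases 2 to 8. The methods list 3 siPkm2 sequences and name siPkm2 #3 as the one chosen, without tying it to the sequenced cultures. Its strands are shown with the seed in capitals, followed by a stretch of the Mmp9 3′ untranslated region (GENCODE M21) with the match in capitals.
siPkm2 #3 antisense (guide): uGUUUCUCcagacagcaugtt
siPkm2 #3 sense (passenger): cAUGCUGUcuggagaaacatt
Mmp9 3′ UTR, match to the sense seed: gcgtatACAGCATgtgtgct
The site of the guide seed, GAGAAAC, was in the 3′ UTR of 0 of the 9 metalloproteinases, beside 17.9% of 13273 tested genes with a 3′ UTR. The site of the passenger seed, ACAGCAT, was found once, in Mmp9, beside 14.2% of genes. None of the strands of siPkm2 #1, siPkm2 #2 or the scrambled siRNA had a seed site in the 3′ UTR of a metalloproteinase. A match of 7 letters is a description only, and its part in the level of Mmp9 was not tested.

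Mmp13 (ENSMUSG00000050578, chr9:7272514-7283331, plus strand) encodes the main collagenase of cartilage, the enzyme known for cutting type II collagen. Its level was 496, 1179 and 259 CPM in siNC replicates 1, 2 and 3 and 209.6, 1657 and 97.3 CPM in siPkm2. Replicate 2 was the highest library in both groups, 3.12 times the mean of replicates 1 and 3 in siNC and 10.8 times in siPkm2. The pairs went in opposite directions, with log2 differences of -1.24 in pair 1, 0.49 in pair 2 and -1.41 in pair 3. The log2 fold change was 0.02 ± 1.08 (SE; edgeR quasi-likelihood F test with Benjamini-Hochberg adjustment, adjusted p = 0.995) and -0.74 ± 0.39 with the replicate block (adjusted p = 0.218). When both libraries of replicate 2 were left out of the blocked fit, the log2 fold change was -1.34 with an adjusted p of 0.000236 by the same test. Pair 2 thus differed in direction from pairs 1 and 3 for Mmp13, while the blocked fit was negative with and without replicate 2.

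Mmp3 (ENSMUSG00000043613, chr9:7445822-7455975, plus strand) encodes a stromelysin, which cuts aggrecan and other matrix proteins and activates proenzymes of the family. It had 64, 17557 and 82 counts in siNC and 185, 16001 and 135 counts in siPkm2. The levels were 2.56, 710.2 and 3.59 CPM in siNC and 8.62, 622.5 and 6.17 CPM in siPkm2. Replicate 2 was 230.9 times the mean of replicates 1 and 3 in siNC and 84.2 times in siPkm2, so the gene was low in 4 libraries and among the abundant metalloproteinases in 2. The log2 differences were 1.58 in pair 1, -0.19 in pair 2 and 0.71 in pair 3. The log2 fold change was -0.17 ± 2.38 (SE; edgeR quasi-likelihood F test with Benjamini-Hochberg adjustment, adjusted p = 0.982) and 0.65 ± 0.36 with the replicate block (adjusted p = 0.230). Without both libraries of replicate 2, the blocked fit gave 1.25 with an adjusted p of 0.0139 by the same test, higher in siPkm2 and opposite in sign to Mmp13.

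Mmp10 (ENSMUSG00000047562, chr9:7502352-7510240, plus strand), the second stromelysin gene, had the lowest median level. It had 3, 252 and 5 counts in siNC and 17, 170 and 4 counts in siPkm2, or 0.12, 10.2 and 0.22 CPM and 0.79, 6.61 and 0.18 CPM. Outside replicate 2 the gene was close to the limit of detection at this depth. Replicate 2 was 60.1 times the mean of replicates 1 and 3 in siNC and 13.6 times in siPkm2. With 0.5 CPM added, the log2 ratios were 3.998 and 2.849. The fitted log2 fold change was -0.47 ± 1.77 (SE; edgeR quasi-likelihood F test with Benjamini-Hochberg adjustment, adjusted p = 0.922), and without replicate 2 the gene was too low to be tested.

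Across the 9 genes, 6 were highest in replicate 2 of both groups, beside 26.9% of all genes tested. The exceptions were Mmp9, Mmp11 and Mmp14. Mmp3, Mmp10 and Mmp13 exceeded replicates 1 and 3 by more than 2-fold in both groups, as 4.98% of all genes did. Mmp3 was also past 16-fold in both groups (0.5 CPM added), as 0.157% of all genes were. No test was made of this contrast, since replicate 2 was known to differ before it was drawn up.

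**Figure D3:**
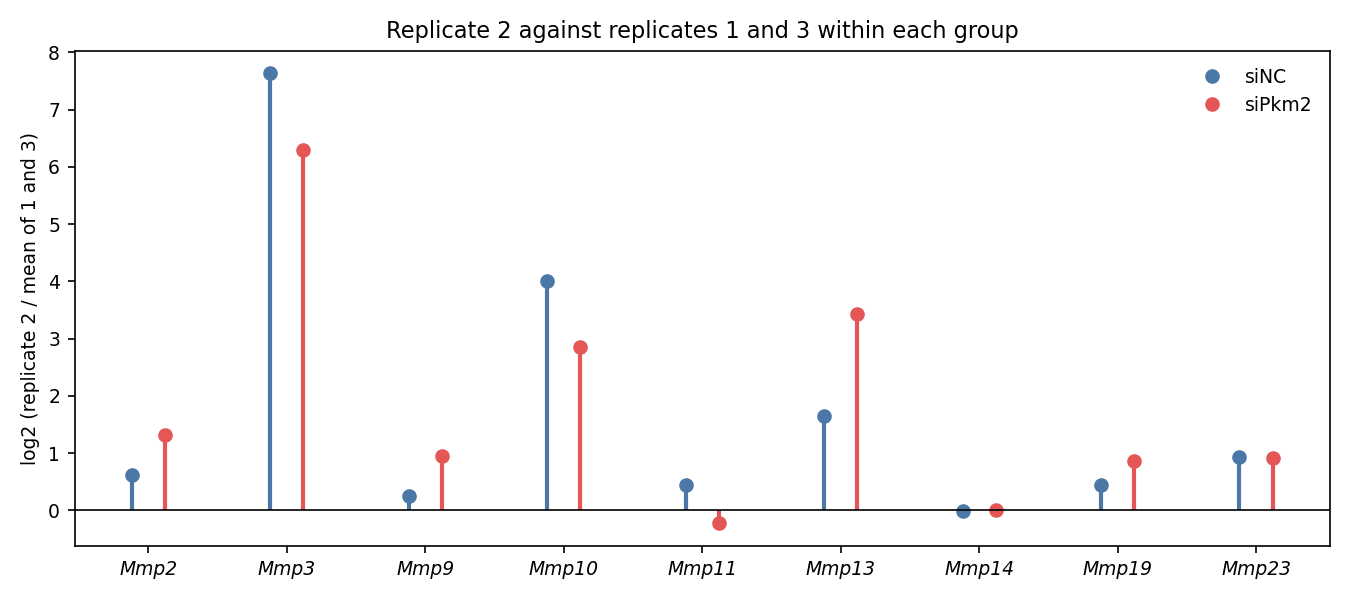
Log2 ratio of replicate 2 to the mean of replicates 1 and 3 for each matrix metalloproteinase gene in siNC (blue) and siPkm2 (red), in CPM with 0.5 added. The ratio reaches 7.63 for Mmp3 in siNC and lies at 0 for Mmp14 in both groups.

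Summed over the 9 genes, metalloproteinase transcripts came to 745, 2370 and 883 TPM in siNC and to 594, 2600 and 793 TPM in siPkm2. Mmp3 made up 31.6% and 24.1% of this sum in replicate 2 and 0.317% to 1.36% in the other libraries. Mmp14 made up 28.3% and 32.7% in siNC replicates 1 and 3 and 52.9% and 52.7% in siPkm2 replicates 1 and 3. In the same libraries Mmp13 made up 39.3% and 19.2% in siNC and 21.1% and 7.59% in siPkm2. Within pairs 1 and 3, the membrane-anchored protease thus had the larger share, and the collagenase the smaller one, in the siPkm2 library. In replicate 2, Mmp14 made up 11.2% in siNC and 15.0% in siPkm2, and Mmp13 made up 33.5% and 41.0%. The share of the collagenase was therefore larger in siPkm2 in that pair.

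**Figure D4:**
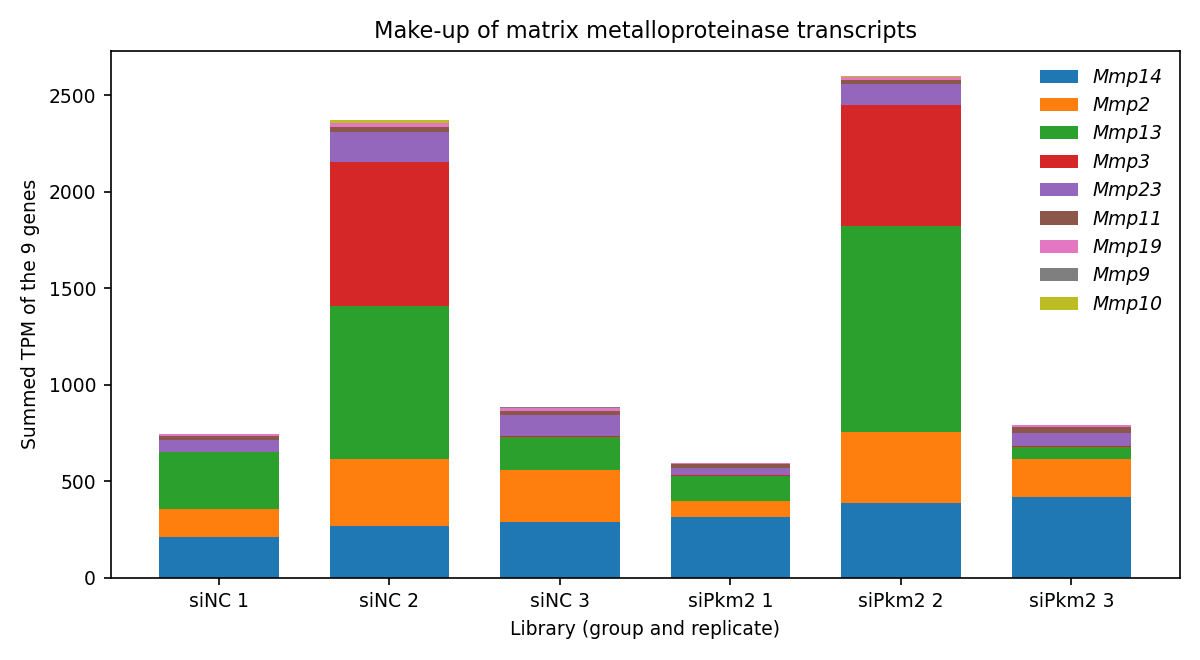
Summed TPM of the 9 matrix metalloproteinase genes in each library, stacked by gene. The sum is 2370 and 2600 TPM in replicate 2 and 594 to 883 TPM in the other 4 libraries, and Mmp3 forms a visible band only in replicate 2.

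Mmp3, Mmp10 and Mmp13 are neighbours on chromosome 9, in a cluster of 10 metalloproteinase genes between 7272514 and 7699585 that also holds Mmp12, Mmp1b, Mmp1a, Mmp8, Mmp27, Mmp20 and Mmp7. Mmp7, Mmp20 and Mmp1a had 0 counts in every library, and Mmp8 and Mmp1b had 7 and 3 counts in all. Mmp12, a macrophage elastase, was too low to be tested, at 0, 1.25 and 0.35 CPM in siNC and 0.05, 1.25 and 0.14 CPM in siPkm2. Mmp27, a low gene, stood at 0.12, 0.81 and 0.13 CPM in siNC and at 0.33, 0.62 and 1.01 CPM in siPkm2. Replicate 2 was the highest library for Mmp12 in both groups and for Mmp27 in siNC only. The high level of Mmp3 in replicate 2 was therefore not matched in level by all genes of the cluster.

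The promoters of the cluster members and of Mmp14 are shown because the former were high in replicate 2 and the latter was level. RefSeq promoter sequences (GRCm38.p6) were found for 6 of the 9 genes, which excludes Mmp2, Mmp9 and Mmp19. Each line runs from 120 bases before to 30 bases after the annotated start, with the AP-1 motif TGANTCA and the TATA box TATAAA in capitals.
Mmp3, chr9:7445702-7445851, plus strand: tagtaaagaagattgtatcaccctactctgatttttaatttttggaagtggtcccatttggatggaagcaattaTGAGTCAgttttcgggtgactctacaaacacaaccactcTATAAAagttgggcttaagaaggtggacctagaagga
Mmp10, chr9:7502222-7502371, plus strand: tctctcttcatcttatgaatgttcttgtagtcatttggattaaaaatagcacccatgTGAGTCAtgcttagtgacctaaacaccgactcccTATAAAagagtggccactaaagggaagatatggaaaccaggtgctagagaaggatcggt
Mmp13, chr9:7272394-7272543, plus strand: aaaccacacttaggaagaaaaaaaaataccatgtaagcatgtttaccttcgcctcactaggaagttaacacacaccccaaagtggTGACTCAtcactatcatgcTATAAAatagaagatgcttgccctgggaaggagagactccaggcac
Mmp14, chr14:54431478-54431627, plus strand: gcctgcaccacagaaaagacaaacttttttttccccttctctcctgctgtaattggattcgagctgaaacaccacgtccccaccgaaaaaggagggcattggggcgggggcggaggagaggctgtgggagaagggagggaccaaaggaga
In the whole windows of 250 bases before to 50 after the start, Mmp3, Mmp10 and Mmp13 each held 1 AP-1 motif, 46, 63 and 35 bases before the start, and 1 TATA box. The TATA box began at positions -7, -29 and -16 from the annotated start, in the same order. No AP-1 motif or TATA box was found in the windows of Mmp11, Mmp14 or Mmp23. Unlike Mmp14, Mmp23 was highest in replicate 2 of both groups. It stood there at 1.91 times the mean of replicates 1 and 3 in siNC and at 1.90 times in siPkm2. Among 32851 promoters of this length, 7.81% held an AP-1 motif on either strand, 8.32% a TATA box on the strand of the gene and 0.995% held both. The ETS motif AGGAAG, searched on both strands and present in 35.4% of promoters, was found in Mmp3, Mmp13 and Mmp14, and did not overlap the other motifs. The motifs are matches of letters, not measured binding.

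**Figure D5:**
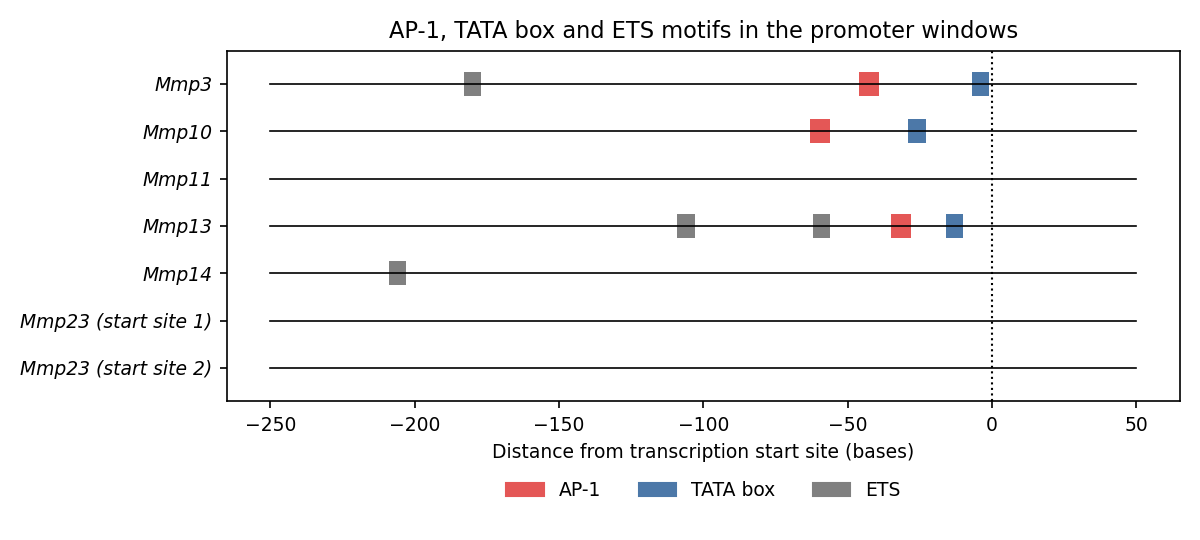
AP-1 (red), TATA box (blue) and ETS (grey) motif matches in the 7 promoter windows found for 6 matrix metalloproteinase genes, by distance in bases from the annotated transcription start site. AP-1 and the TATA box appear together within 63 bases of the start in Mmp3, Mmp10 and Mmp13 and in no other window.

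Mmp19 (ENSMUSG00000025355, chr10:128790910-128800824, plus strand) encodes a secreted enzyme that cuts basement membrane proteins and aggrecan. It stood at 18.3, 31.1 and 27.4 CPM in siNC and at 6.71, 23.7 and 18.8 CPM in siPkm2. Each pair was lower in siPkm2, by -1.39, -0.39 and -0.53 on the log2 scale, while the groups overlapped. The fitted log2 fold change was -0.64 ± 0.46 (SE; edgeR quasi-likelihood F test with Benjamini-Hochberg adjustment, adjusted p = 0.523). With the replicate block it was -0.77 ± 0.22 (adjusted p = 0.058 by the same test). Without both libraries of replicate 2, the blocked fit gave -0.96 (adjusted p = 0.0143 by that test). In that fit 39.1% of all genes had an adjusted p under 0.05.

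Mmp23 (ENSMUSG00000029061, chr4:155650655-155653384, minus strand) encodes an unusual member that is anchored by its amino end and lacks the hemopexin domain. Its levels were 32.0, 79.4 and 51.2 CPM in siNC and 19.9, 58.4 and 41.7 CPM in siPkm2. Here too each pair was lower in siPkm2, with log2 differences of -0.67, -0.44 and -0.29, and the groups overlapped. The log2 fold change was -0.44 ± 0.47 (SE) with an adjusted p of 0.683 by the edgeR quasi-likelihood F test with Benjamini-Hochberg adjustment, and -0.47 ± 0.10 with the replicate block, with an adjusted p of 0.0313. The fold was under 2, so Mmp23 was not called.

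Mmp11 (ENSMUSG00000000901, chr10:75923222-75936496, minus strand) encodes a protease that furin activates before secretion. It stood at 25.7, 33.4 and 23.4 CPM in siNC and at 24.0, 26.7 and 38.5 CPM in siPkm2. The library with the highest level was replicate 2 in siNC and replicate 3 in siPkm2. Its log2 fold change was 0.11 ± 0.24 (SE; edgeR quasi-likelihood F test with Benjamini-Hochberg adjustment, adjusted p = 0.857).

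Leaving out both libraries of replicate 2 changed which genes were called. In the blocked fit of the remaining 4 libraries, which leaves 1 residual degree of freedom per gene, 8 of the 9 genes were tested and 3 were called, Mmp3 higher and Mmp9 and Mmp13 lower, against 10.8% of all genes, 4.94% higher and 5.85% lower. Without the block these 4 libraries gave no call among the 8 genes, with adjusted p of 0.0607 for Mmp9, 0.0899 for Mmp3 and 0.154 for Mmp13 by the edgeR quasi-likelihood F test. At any fold with the block, 7 of 8 had an adjusted p under 0.05, 2 higher and 5 lower, against 39.1% of all genes, 19.8% higher and 19.3% lower. Mmp9 was at -2.43 on the log2 scale with an adjusted p of 0.00376, and Mmp2 at -0.62 with an adjusted p of 0.00906, by the edgeR quasi-likelihood F test with Benjamini-Hochberg adjustment.

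The members varied together in groups. Pearson's r of log2 CPM over the 6 libraries, given as a description since the libraries share replicate numbers and 2 of them stand apart, was 0.989 between Mmp3 and Mmp10, 0.821 between Mmp10 and Mmp13 and 0.808 between Mmp3 and Mmp13. A second group was Mmp2, Mmp19 and Mmp23, with r between 0.926 and 0.964. Mmp9 and Mmp14 had an r of -0.70.

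Over all genes tested, the 5 genes most like Mmp3 by the same measure were Slc4a11, Birc3, Gdf5, Pde4b and Cish, with r from 0.996 to 0.998. Birc3, an inhibitor of cell death in cytokine signalling, stood at 43.9 and 43.4 CPM in replicate 2 and at 14.3 to 16.4 CPM elsewhere. Those most like Mmp9 were Fam13a, C1rl, Hyal2, Nxph4 and Zfp775, with r from 0.992 to 0.998. Hyal2, a hyaluronidase, stood at 37.9, 44.7 and 45.2 CPM in siNC and at 18.3, 31.4 and 22.3 CPM in siPkm2. Those most like Mmp13 were Acp6, Nxn, Lurap1, Pygl and Mgarp, with r from 0.981 to 0.992. Pygl, the liver form of glycogen phosphorylase, stood at 98.3, 119.9 and 67.9 CPM in siNC and at 74.4, 139.5 and 58.0 CPM in siPkm2. The number of genes with r above 0.95 was 362 for Mmp3, 224 for Mmp9 and 47 for Mmp13.

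Of the 14 other family members in the table, 5 had enough counts to be tested, and without the block 0 were called. The blocked test called 2.65% of all genes higher and 3.18% lower. With the block 1 was called, Mmp17, a lipid-anchored enzyme, at 1.52, 3.16 and 3.33 CPM in siNC and 2.80, 7.90 and 6.49 CPM in siPkm2 (log2 fold change 1.07 ± 0.21, adjusted p = 0.0250 by the edgeR quasi-likelihood F test with Benjamini-Hochberg adjustment). Mmp16, a membrane-anchored enzyme close to Mmp14, stood at 39.0, 27.9 and 45.2 CPM in siNC and 79.6, 53.2 and 74.9 CPM in siPkm2. Its siPkm2 libraries lay above its siNC libraries, as those of Mmp14 and of 12% of all genes did. Its log2 fold change with the block was 0.90 ± 0.09 (adjusted p = 0.0112 by the same test), under the threshold on the fold. At any fold with the block, 12.3% of all genes were higher. Mmp15, another membrane-anchored enzyme tested, was at -0.78 ± 0.24 with an adjusted p of 0.0712 by that test.

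The endogenous inhibitors outweighed the enzymes in every library on the TPM scale. Over 6 inhibitor genes the sum was 2458, 3257 and 2367 TPM in siNC and 3035, 3338 and 2873 TPM in siPkm2. The margin over the 9 enzymes was narrowest in replicate 2, where the enzymes summed to 2370 and 2600 TPM. None of the 6 inhibitors was called with or without the block, beside 5.83% of all genes with it. Reck, a membrane-anchored inhibitor, passed with the block at any fold (log2 fold change 0.51 ± 0.10, adjusted p = 0.0268 by the edgeR quasi-likelihood F test with Benjamini-Hochberg adjustment). By the same test, Timp1 was at 0.52 ± 0.16 (adjusted p = 0.0706), Timp4, a low gene that was lower in each pair, at -0.98 ± 0.41 (adjusted p = 0.138), and Timp2 at 0.21 ± 0.10 (adjusted p = 0.156). Of the secreted inhibitors, Timp1 had its highest level in replicate 2, at 631 and 672 CPM, and Timp3 its lowest, at 2425 and 2434 CPM.

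Of 13 tested activators and cofactors, 0 were called without the block and 1 with it, and 4 were higher and 1 lower at any fold with the block. With the block 5.83% of all genes were called, and at any fold 12.3% were higher and 10.8% lower. Ctsk was called (1.20 ± 0.15 on the log2 scale, adjusted p = 0.0130 by the edgeR quasi-likelihood F test with Benjamini-Hochberg adjustment). Plau, the urokinase that makes plasmin, an activator of proenzymes, was at 0.85 ± 0.09 (adjusted p = 0.0112 by the same test). Furin, the convertase that activates Mmp14 and Mmp11, was at 0.61 ± 0.09 (adjusted p = 0.0160), the same log2 size as Mmp14. Plat, the tissue plasminogen activator, was at -0.71 ± 0.13 (adjusted p = 0.0232), so the activators did not move one way.

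Among 20 collagen and proteoglycan substrates, 0 were called without the block and 3 with it, beside 5.83% of all genes with it. Vcan (versican, a large proteoglycan) at 1.57 ± 0.14 and Dcn (decorin, a collagen-binding proteoglycan) at 1.28 ± 0.18 were higher, and Eln (elastin) at -1.28 ± 0.28 was lower on the log2 scale, with adjusted p of 0.0109, 0.0148 and 0.0306 by the edgeR quasi-likelihood F test with Benjamini-Hochberg adjustment. Col2a1, the type II collagen cut by Mmp13, was at -0.08 ± 0.22 with the block (adjusted p = 0.801 by the same test).

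The factors known to bind metalloproteinase promoters and the inflammatory genes were mostly at their highest in replicate 2, like Mmp3, Mmp10 and Mmp13. Of 17 transcription factors, 14 were highest in replicate 2 of both groups, and of 18 tested inflammatory genes, 18 were, beside 26.9% of all genes. The exceptions were Runx2 and the AP-1 subunits Fos and Jund. Both lists were chosen with earlier results of these data known, so these counts are a description. Fosl1, an AP-1 subunit, stood at 55.5 and 54.8 CPM in replicate 2 and at 4.38 to 14.0 CPM elsewhere, and was named after its values were seen. With the block, 1 factor was called, Junb, an AP-1 subunit (1.05 ± 0.22, adjusted p = 0.0286 by the edgeR quasi-likelihood F test with Benjamini-Hochberg adjustment). At any fold 4 factors were higher and 1 lower, among them the AP-1 subunit Fos (0.82 ± 0.16, adjusted p = 0.0248) and, lower, the hypoxia-inducible factor Epas1 (-0.58 ± 0.14, adjusted p = 0.0379) by that test. Of the inflammatory genes, 4 were called higher with the block and 0 lower, among them the chemokine Cxcl10 (2.30 ± 0.31, adjusted p = 0.0141 by the same test) and the cytokine Lif (1.56 ± 0.29, adjusted p = 0.0225). Beside both lists, 2.65% of all genes were called higher and 3.18% lower with the block. At any fold the shares were 12.3% and 10.8%.

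Median log2 fold changes with the block were 0.90 for the other family members, 0.34 for the inhibitors, 0.61 for the activators and cofactors, 0.18 for the substrates, 0.17 for the transcription factors and 0.74 for the inflammatory genes, beside -0.36 for the 9 enzymes and -0.01 for all genes tested. Without the block 0 genes of these lists were called by edgeR, and at an unadjusted p under 0.05 there were 1, 0, 5, 1, 1 and 0 in the same order, beside 17.6% of all genes.

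Markers of other cells gave the following sums beside these results. The 8 synovial fibroblast markers summed to 287, 597 and 453 CPM in siNC and 415, 743 and 648 CPM in siPkm2. The 7 osteoblast markers summed to 425, 36.9 and 253 CPM in siNC and 172, 45.7 and 82.3 CPM in siPkm2. The 6 endothelial markers summed to 0.641 to 2.10 CPM and the 7 muscle markers to 5.21 to 12.9 CPM over the 6 libraries. With the block, calls were 0 of 14 chondrocyte, 2 of 6 macrophage and osteoclast (higher), 1 of 5 osteoblast (lower), 2 of 7 synovial fibroblast (higher), 0 of 1 endothelial and 1 of 3 muscle markers tested (higher). Of all genes, 2.65% were called higher and 3.18% lower. Mmp2 had the order of libraries of the fibroblast sum within each group. In pairs 1 and 3, however, Mmp2 was lower in siPkm2 while that sum was higher. Mmp13 outside replicate 2 was lower in siPkm2, as the osteoblast sum was, and both were higher in siPkm2 in pair 2. Within each group, however, replicate 2 held the highest level of Mmp13 and the lowest osteoblast sum. In these bulk libraries, fewer cells of a type and less RNA per cell cannot be told apart, and the part of cell makeup in the metalloproteinase levels was not tested.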

How the data were processed

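RNA-seq was read from the deposited table. The authors deposited estimated counts per gene, not normalized and some of them fractional, and TPM values per library and as a mean of each group. The authors' own comparison (fold ratios, log2 fold changes, p-values and adjusted p-values) was deposited too and was not used. The submitters' processing notes name edgeR and mm9, the table is named for DESeq2, and the aligner and counter are not given in the sources used here. Positions were looked up by gene identifier in GENCODE M21 (GRCm38).

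Rounded counts were fitted with edgeR 4.0.16 in R 4.3.3 (filterByExpr on the group, TMM factors, quasi-likelihood test, Benjamini-Hochberg adjustment over 15269 genes). DESeq2 1.42.0 and limma 3.58.1 on log2(TPM + 1) were alternatives. A gene was called at a fold over 2 and an adjusted p under 0.05. Levels are CPM with TMM factors. Log2 ratios between libraries had 0.5 CPM added, while ratios given as times and ratios of means had nothing added. Deviations from the group means correlated at 0.664, 0.756 and 0.646 between libraries of the same number and at most 0.158 between others, so the numbers pair the libraries. Within groups, 52.6% to 73.4% of genes differed by more than sampling noise, so no library was a duplicate. The fits were tested on simulated data.

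The genes named were all members, up to 4 per list with the smallest p in the blocked fit, and the 5 genes most like Mmp3, Mmp9 and Mmp13. Col2a1, Timp3, Fosl1, Jund, Runx2, Dcstamp, Ptprc, Lyz2 and the genes of the chromosome 9 cluster were named outside this rule, after their values were seen. Members and lists were chosen with earlier results of these data known.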

Additional observations from a re-analysis of the deposited data

How the results depend on the processing

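Mmp9 and Mmp14 kept their direction under every alternative run, with log2 fold changes of -2.53 to -1.54 and 0.53 to 0.70 when libraries were left out, as did Mmp19 (-0.999 to -0.270) and Mmp23 (-0.81 to -0.05). The count of metalloproteinases called was 0 without the block and 1 with the replicate block, with DESeq2 and with DESeq2 and the replicate block, and 0 by limma with the block, where Mmp9 was at -0.96. It was 3 with the replicate block and no threshold on the fold, and 0 to 3 when libraries were left out. Over all genes, 0 were called in the unblocked test, 890 with the replicate block, 442 by DESeq2, 1055 by DESeq2 with the block, 537 by limma with the block, 3524 with the block and no threshold on the fold, and 9, 3, 3 and 1 with no filter, with at least 10 counts in every library, with upper-quartile scaling and by limma. Leaving out libraries gave 0 to 1639.

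Directions turned for 5 genes. Mmp3 turned to 0.65 with the replicate block, 0.77 with DESeq2 and the block, 0.59 by limma with and without the block, and lay between -5.01 and 6.11 when libraries were left out. Mmp13 turned to -0.74 with the block in edgeR and DESeq2, -0.039 with upper-quartile scaling and -0.76 by limma, and lay between -2.07 and 0.80. Mmp10 turned to 0.16 with the block and 0.40 with DESeq2 and the block, and lay between -2.83 and 3.88. Mmp11 turned to -0.013 by limma with and without the block and lay between -0.21 and 0.34, with -0.11 without siPkm2 replicate 3, and Mmp2 lay between -0.78 and 0.17. With the block and without replicates 1, 2 and 3 in turn, Mmp3 was at 0.22, 1.25 and 0.66 and Mmp13 at -0.46, -1.34 and -0.37, and Mmp10 was at 0.26 without replicate 3. None of these passed the threshold except Mmp3 and Mmp13 without replicate 2 in the blocked fit. The cause was not tested. The unblocked fit without replicate 2 (507 genes called, 0 of 8 metalloproteinases) was chosen after seeing the data. Mmp9 and Mmp10 could not be tested at 10 counts in every library, nor Mmp10 without replicate 2. A lone pair left out leaves 4 libraries, and low counts limit Mmp9 and Mmp10.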
